A study of Mus musculus with 6 samples.

Results

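This section describes 33 genes of glycolysis and of the response to low oxygen, chosen by name, in cultured heart muscle cells treated with α-ketoglutarate (αKG). They comprise 25 glycolytic genes (18 enzymes, 4 transporters and 3 regulators) and 8 other genes induced in hypoxia, out of 20066 genes listed, of which 14257 were protein coding. The cells were primary cardiomyocytes (CMs) of C57BL/6 mice, isolated at postnatal day 0 to 1 and kept for 96 h either with DMSO, the solvent, or with a cell-permeable form of αKG, at 100 µM according to the labels. No genetic change was made, and each group had 3 libraries of total RNA. According to the study's methods, a sample in its work with neonatal CMs was a single isolation from hearts of several newborns combined, so each library pools animals. The labels do not say whether a DMSO and an αKG library came from the same isolation.

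Glycolysis breaks glucose down to pyruvate in the cytosol, and lactate dehydrogenase then turns pyruvate into lactate that leaves the cell through monocarboxylate transporters. Fetal and newborn cardiomyocytes use glucose and lactate heavily and move to fatty acids after birth. Hypoxia-inducible factors (HIFs) bind short elements near many glycolytic genes. They are held low in oxygen by prolyl hydroxylases, dioxygenases that use αKG and oxygen as co-substrates.

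The HIF element has the core ACGTG or GCGTG, and promoters of 5 members with large differences between libraries are printed here with this core. They are *Slc16a3* (a lactate exporter), *Pfkp* (a phosphofructokinase), *Car9* (a carbonic anhydrase), *Bnip3* (a mitophagy receptor) and *Ankrd37* (an ankyrin repeat protein). Each sequence holds the 250 bases before the RefSeq start site on GRCm38.p6, written 5′ to 3′ on the strand of the gene, with a match of either core on either strand in capitals.
Slc16a3, chr11:120948817-120949066, + strand: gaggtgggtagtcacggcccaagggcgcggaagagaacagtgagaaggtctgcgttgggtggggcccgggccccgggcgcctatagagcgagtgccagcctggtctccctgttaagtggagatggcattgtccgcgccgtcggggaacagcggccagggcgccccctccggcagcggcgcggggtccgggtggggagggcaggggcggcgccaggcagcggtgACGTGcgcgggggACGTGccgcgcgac
Pfkp, chr13:6648772-6649021, - strand: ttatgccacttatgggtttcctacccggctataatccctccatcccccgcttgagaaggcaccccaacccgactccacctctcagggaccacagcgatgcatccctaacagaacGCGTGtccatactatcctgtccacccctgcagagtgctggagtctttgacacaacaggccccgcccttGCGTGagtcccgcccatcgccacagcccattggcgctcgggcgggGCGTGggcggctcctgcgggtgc
Car9, chr4:43506776-43507025, + strand: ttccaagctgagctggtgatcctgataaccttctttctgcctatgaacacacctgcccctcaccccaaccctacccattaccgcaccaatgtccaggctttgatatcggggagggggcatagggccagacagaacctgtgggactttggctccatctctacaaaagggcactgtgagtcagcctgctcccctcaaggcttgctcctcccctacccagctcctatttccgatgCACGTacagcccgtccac
Bnip3, chr7:138909507-138909756, - strand: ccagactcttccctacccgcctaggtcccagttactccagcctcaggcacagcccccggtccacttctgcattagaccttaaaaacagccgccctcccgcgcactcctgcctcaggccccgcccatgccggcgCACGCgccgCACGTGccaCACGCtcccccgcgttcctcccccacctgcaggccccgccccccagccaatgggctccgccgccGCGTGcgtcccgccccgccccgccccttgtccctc
Ankrd37, chr8:45999851-46000100, - strand: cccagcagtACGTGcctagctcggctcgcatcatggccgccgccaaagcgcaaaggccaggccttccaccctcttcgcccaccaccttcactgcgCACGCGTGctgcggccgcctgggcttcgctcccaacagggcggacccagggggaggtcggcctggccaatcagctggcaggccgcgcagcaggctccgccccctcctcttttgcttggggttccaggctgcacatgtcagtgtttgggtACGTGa
Overlapping matches are counted one by one, which gives 2 matches for *Slc16a3*, 3 for *Pfkp*, 1 for *Car9*, 5 for *Bnip3* and 4 for *Ankrd37*. The only *Car9* match starts 18 bases before the start site, and those of *Slc16a3* start 27 and 14 bases before it. In *Bnip3*, 2 of the 5 matches lie in the palindrome CACGTG, which is also the E-box bound by other factors.

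RefSeq promoter windows, which reach from before the start site to shortly after it, were found for 31 of the 33 members, the exceptions being *Slc2a4* and *Ndrg1*. A core was present in at least 1 window of 28 of these 31 members (90.3%), namely 21 of 24 glycolytic genes and 7 of 7 other hypoxia genes. Among all 27025 genes with a window the share was 46.7%, and among the 6634 such genes with a mean value of at least 100 here it was 71.1%. The core holds a CG step, and the 46 windows of the members were richer in G and C (median 61.8%) than all 32851 windows (median 52.7%). A match describes the letters of a window and does not show that a factor binds there.

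Expression was measured as normalised read counts rounded to whole numbers. The estimated reads in genes lay between 3726069 and 4427587 per library. The 6 libraries did not fall into their groups. On the first principal component, with 52.9% of the variance, αKG replicates 1 and 2 lay at 76.7 and 71.4, whereas αKG replicate 3 lay at -21.4, next to the DMSO libraries at -46.7 to -36.3. The library labelled αKG replicate 3 thus stood with the DMSO libraries, against its label, in most of the variance, though not in cell cycle genes, whose sum was highest in it (19421, against 7920 to 14625 in DMSO and 17567 and 16666 in the other αKG libraries). The cause was not tested, and whether that library had the same treatment as the other two cannot be told from these data. Calls that depend on leaving it out are therefore given beside the value with all libraries. Cardiomyocyte markers were high in every library, *Tnnt2* at 2812 to 3681 and *Myh6* at 4910 to 5839, so the labelled cell type had its markers.

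The 33 members showed the same division. Among the DMSO libraries they varied by no more than counting noise over the 31 members with enough reads (chi-square of 1.10, 1.29 and 0.915 per gene for the 3 pairs, p = 0.317, 0.130 and 0.603). αKG replicates 1 and 2 differed by 2.95 per gene, and αKG replicate 3 differed from them by 29.2 and 37.7. αKG replicate 1 lay above all DMSO libraries in 21 members and below all in 8. The corresponding counts were 24 and 6 for αKG replicate 2, but 4 and 17 for αKG replicate 3, which lay within the DMSO range in the other 12. Across all 20066 genes, αKG replicate 1 lay above in 8089 and below in 6886, αKG replicate 2 in 7849 and 6692, and αKG replicate 3 in 5485 and 5408. For the 8295 genes whose mean reached 100, these counts were 2541 and 4648, 2585 and 4466, and 2402 and 3308.

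**Figure D1:**
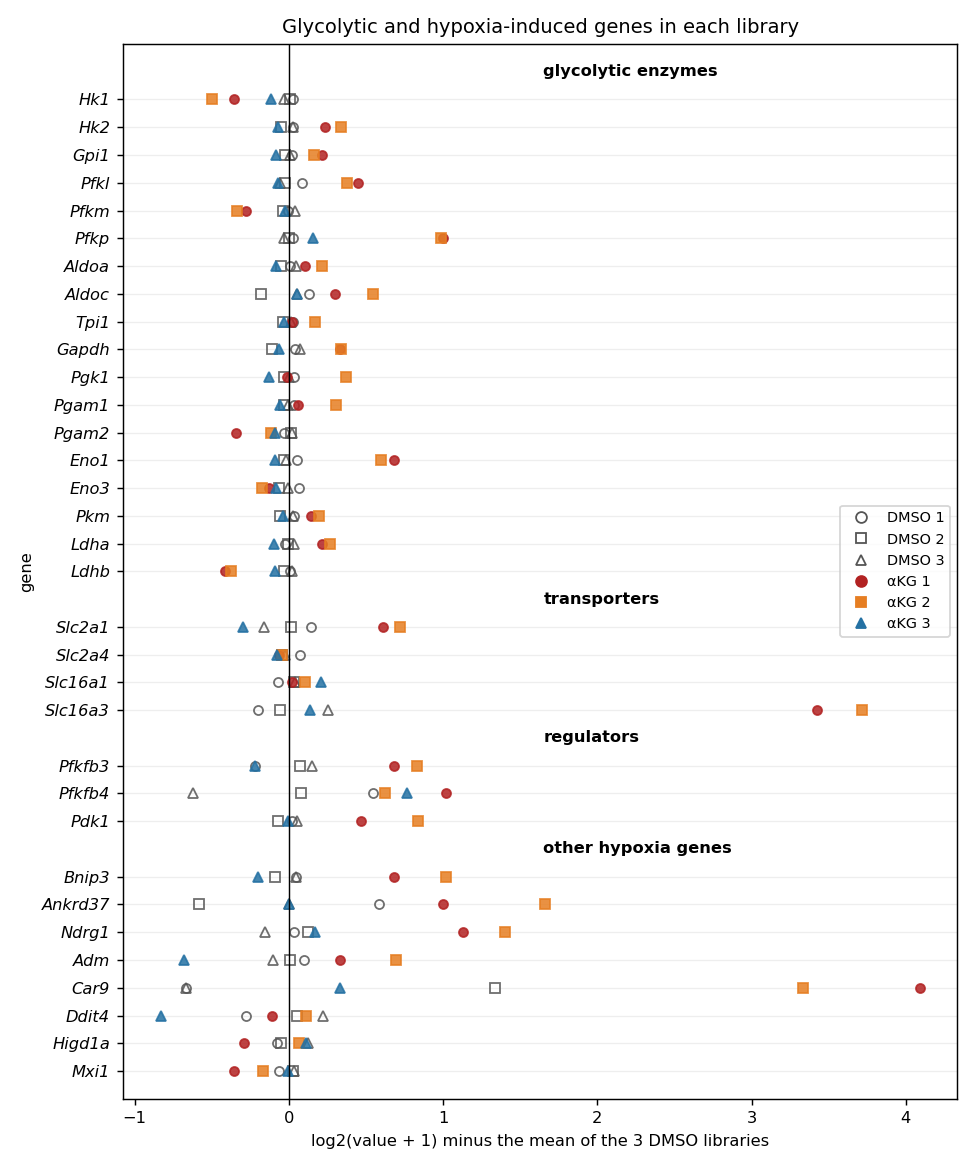
Each point is 1 library and each line 1 gene. The x axis gives log2(value + 1) minus the mean of the 3 DMSO libraries, open symbols are DMSO and filled symbols αKG. αKG replicates 1 and 2 stand apart from DMSO in most genes, most widely in *Slc16a3* and *Car9*, while αKG replicate 3 (blue) lies nearer to the DMSO libraries in most genes but departs from them in *Ddit4*, *Pfkfb4* and *Adm*.

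Whether glycolytic and hypoxia genes differ between αKG and DMSO was asked with limma on log2(value + 1) over all genes. With all 6 libraries, 0 of the 33 members passed a Benjamini-Hochberg adjusted p of 0.05 (limma, 0.0621 to 0.863), against 759 of all genes (3.78%). An unadjusted p under 0.05 was reached by 10 members, 8 glycolytic and 2 other hypoxia genes, where 28.1% of all genes reached it. limma-voom on estimated reads also called 0 members, with 6 at an unadjusted p under 0.05, against 5469 of all 20066 genes. The groups did not overlap in 3 members that were higher in αKG (*Pfkp*, *Pfkfb4* and *Ndrg1*, against 13.7% of all genes) and in 4 that were lower (*Hk1*, *Pgam2*, *Eno3* and *Ldhb*, against 14.6%).

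The fit without αKG replicate 3 is singled out because the values of that library differed from those of the other αKG libraries. Its adjusted p values rest on those same values, so here and below they describe the remaining libraries. They are not independent evidence of an effect of αKG. Without αKG replicate 3, 21 of the 33 members passed, 17 higher and 4 lower in αKG. The shares over all genes were 19.3% higher and 17.9% lower. Among the 8295 genes with a mean of at least 100, where most members belong, 18.4% were higher and 34.6% lower. The glycolytic genes gave 13 higher and 3 lower of 25, and the other hypoxia genes 4 higher and 1 lower of 8. Without αKG replicate 1 or 2, no gene of the table was called (limma, 3324 and 3244 genes at an unadjusted p under 0.05, with 0 and 1 members among them).

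The median log2 fold change of the glycolytic genes was 0.11 with all libraries and 0.19 without αKG replicate 3. That of the other hypoxia genes was 0.31 and 0.68, while the median of all genes was 0.04 and 0.06. Library by library, the median difference from the DMSO mean was 0.21, 0.31 and -0.07 for glycolytic genes in αKG replicates 1 to 3, and 0.51, 0.86 and 0.00 for the other hypoxia genes. These medians carry no test. The hypoxia median was 0.07 without αKG replicate 2, 0.04 when *Car9* and *Ankrd37* were left out for a mean under 10, and 0.08 with a correction for GC content and length, which shifted the median of all genes to -0.11.

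**Figure D2:**
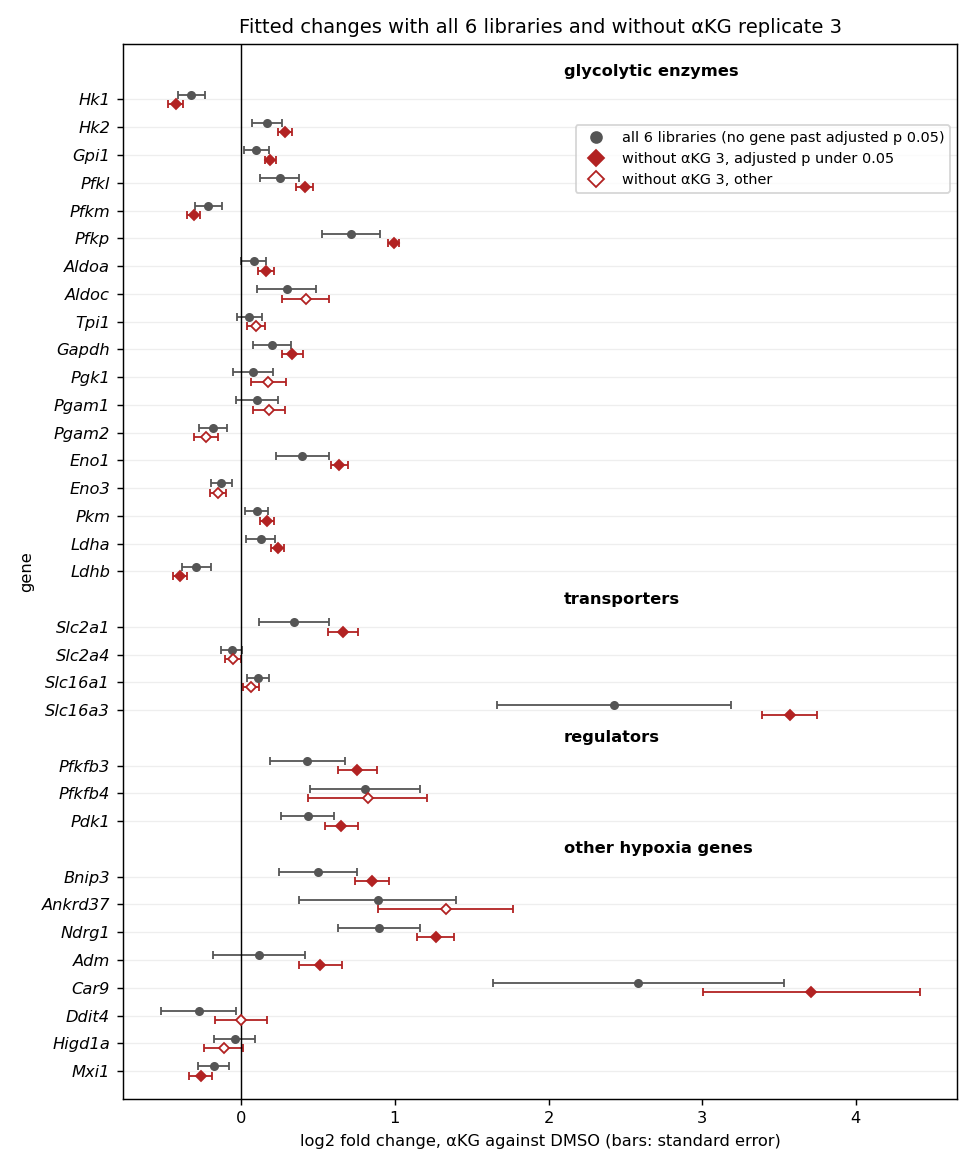
Log2 fold change of each member, αKG against DMSO, with its standard error. Grey circles use all 6 libraries, and diamonds leave out αKG replicate 3, filled where the adjusted p is under 0.05. The 21 filled diamonds include 17 to the right of 0 and 4 to the left.

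Glucose enters muscle cells through GLUT1 (*Slc2a1*), the transporter of fetal heart, and the insulin-responsive GLUT4 (*Slc2a4*). *Slc2a1* had 286, 261 and 231 normalised counts in the DMSO libraries, in the order of their numbers, against 395, 426 and 210 in the αKG libraries. Only αKG replicates 1 and 2 exceeded the DMSO range, and αKG replicate 3 was the lowest of the 6. The log2 fold change was 0.34 ± 0.23 (SE) with all libraries (limma adjusted p = 0.345) and 0.66 ± 0.10 without αKG replicate 3 (limma adjusted p = 0.00405). *Slc2a4* had 601, 556 and 562 in DMSO against 547, 556 and 542 with αKG, so that the groups overlapped (log2 change -0.06 ± 0.07). As a share of the summed value of both transporters per kb of exon, *Slc2a1* took 32.1%, 31.8% and 29.0% in DMSO and 41.7%, 43.2% and 27.8% in αKG.

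Hexokinases trap glucose as glucose 6-phosphate, *Hk1* being the constitutive form and *Hk2* the insulin-sensitive one. *Hk1* (ENSMUSG00000037012, GRCm38 chr10:62268855-62379908) had 1626, 1606 and 1560 normalised counts in DMSO against 1248, 1131 and 1472 with αKG. All αKG libraries were below all DMSO libraries, αKG replicate 3 by the least. The log2 fold change was -0.32 ± 0.09 (limma adjusted p = 0.0683), and -0.43 ± 0.05 without αKG replicate 3 (limma adjusted p = 0.00204). *Hk2* had 1140, 1084 and 1141 in DMSO against 1320, 1418 and 1068 with αKG, with αKG replicate 3 the lowest (log2 change 0.17 ± 0.10 with all libraries, limma adjusted p = 0.282, and 0.29 ± 0.05 without αKG replicate 3, limma adjusted p = 0.00575). Per kb, *Hk1* held 49.9%, 50.9% and 48.9% of the 2 forms in DMSO but 39.8%, 35.8% and 49.1% in αKG. Their summed level by this measure was between 351 and 382 per kb in all 6 libraries. Both the shares and the sum depend on the exon lengths used, 8532 bases for *Hk1* and 5969 for *Hk2*. Whether total hexokinase RNA was constant is therefore not shown. *Gpi1*, which isomerises glucose 6-phosphate to fructose 6-phosphate, had 1127, 1091 and 1117 in DMSO against 1289, 1247 and 1049 with αKG. It passed only without αKG replicate 3 (log2 change 0.10 ± 0.08 with all libraries, limma adjusted p = 0.446, and 0.19 ± 0.04 without αKG replicate 3, limma adjusted p = 0.0104).

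Phosphofructokinase commits sugar to glycolysis, and its muscle (*Pfkm*), liver (*Pfkl*) and platelet (*Pfkp*) subunits form mixed tetramers. *Pfkp* (ENSMUSG00000021196, chr13:6579768-6648777) had the smallest adjusted p of all members. It had 952, 934 and 915 normalised counts in DMSO against 1868, 1847 and 1039 with αKG. Each αKG library was above each DMSO library, but αKG replicate 3 was much closer to DMSO than to its own group. The means were 934 ± 18.5 in DMSO and 1585 ± 473 in αKG (SD, n = 3 each), so that log2 values differed by 0.71 ± 0.19 (limma adjusted p = 0.0621). Without αKG replicate 3 it was 0.99 ± 0.04 (limma adjusted p = 0.000106). *Pfkl* had 596, 552 and 541 in DMSO against 768, 731 and 535 with αKG, with αKG replicate 3 below the DMSO range (log2 change 0.25 ± 0.13 with all libraries, limma adjusted p = 0.222, and 0.41 ± 0.06 without αKG replicate 3, limma adjusted p = 0.0034). *Pfkm* went the other way, with 1053, 1029 and 1086 in DMSO against 870, 836 and 1039 with αKG (log2 change -0.21 ± 0.09 with all libraries, limma adjusted p = 0.145, and -0.31 ± 0.04 without αKG replicate 3, limma adjusted p = 0.00334). Per kb, *Pfkp* took 14.9%, 15.1% and 14.4% of the 3 subunits in DMSO and 27.1%, 27.7% and 16.5% in αKG. By this measure *Pfkm* held the largest share in every library, 66.3% to 68.5% in DMSO and 50.6%, 50.3% and 66.4% in αKG. The measure rests on exon lengths of 13401 bases for *Pfkp* and 3340 for *Pfkm*. In normalised counts, *Pfkp* was above *Pfkm* in αKG replicates 1 and 2.

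In the middle of the pathway, from aldolase to phosphoglycerate mutase, 2 of 7 genes passed without αKG replicate 3 and 0 with all libraries. Without αKG replicate 3, 19.3% of all genes passed as higher and 17.9% as lower. Among genes with a mean of at least 100 these shares were 18.4% and 34.6%. With all libraries 3.78% of all genes passed. *Aldoa*, the muscle aldolase, had 990, 953 and 1018 normalised counts in DMSO against 1063, 1146 and 933 with αKG (log2 change 0.08 ± 0.08 with all libraries, limma adjusted p = 0.535, and 0.16 ± 0.05 without αKG replicate 3, limma adjusted p = 0.0464). *Aldoc*, the brain form, was low, at 56, 45 and 53 in DMSO against 63, 75 and 53 with αKG, which overlapped (0.30 ± 0.19, limma adjusted p = 0.335). *Gapdh*, which makes 1,3-bisphosphoglycerate and NADH, had 292, 264 and 299 in DMSO against 358, 360 and 272 with αKG (log2 change 0.20 ± 0.12 with all libraries, limma adjusted p = 0.305, and 0.33 ± 0.07 without αKG replicate 3, limma adjusted p = 0.0135). αKG replicate 3 lay within the DMSO range for *Gapdh* and below it for *Aldoa*. *Tpi1*, *Pgk1* and *Pgam1* passed in neither fit, with log2 fold changes of 0.05, 0.08 and 0.10 and overlapping groups. *Pgam1*, the phosphoglycerate mutase of most tissues, had 118, 113 and 115 in DMSO against 120, 143 and 111 with αKG. *Pgam2*, the muscle phosphoglycerate mutase, had 437, 452 and 454 in DMSO against 353, 413 and 421 with αKG, which did not overlap (-0.18 ± 0.09, limma adjusted p = 0.214).

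Enolase forms phosphoenolpyruvate, with *Eno1* the form of embryonic and proliferating tissue and *Eno3* that of adult muscle. *Eno1* had 392, 371 and 373 normalised counts in DMSO against 607, 574 and 356 with αKG. αKG replicates 1 and 2 were well above DMSO, whereas αKG replicate 3 was below it. Its log2 fold change was 0.40 ± 0.17 (limma adjusted p = 0.169) and 0.64 ± 0.05 without αKG replicate 3 (limma adjusted p = 0.000823). *Eno3* had 855, 781 and 813 in DMSO against 746, 723 and 770 with αKG, lower without overlap but not past the threshold (-0.13 ± 0.07, limma adjusted p = 0.238). Per kb, *Eno1* held 12.9% to 13.3% of both forms in DMSO and 20.8%, 20.4% and 13.0% in αKG. These shares rest on exon lengths of 5379 bases for *Eno1* and 1739 for *Eno3*. *Pkm*, the muscle pyruvate kinase, had 1077, 1013 and 1073 in DMSO against 1163, 1208 and 1028 with αKG (log2 change 0.10 ± 0.07 with all libraries, limma adjusted p = 0.388, and 0.17 ± 0.04 without αKG replicate 3, limma adjusted p = 0.0266). The splice forms of *Pkm* cannot be told apart in gene counts.

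Lactate dehydrogenase is a tetramer of *Ldha* and *Ldhb* subunits, *Ldhb* prevailing in adult heart. *Ldha* had 707, 718 and 737 normalised counts in DMSO against 836, 865 and 673 with αKG (log2 change 0.13 ± 0.10 with all libraries, limma adjusted p = 0.404, and 0.24 ± 0.04 without αKG replicate 3, limma adjusted p = 0.00741). *Ldhb* (ENSMUSG00000030246, chr6:142490249-142507957) had 618, 602 and 623 in DMSO against 460, 473 and 578 with αKG. All αKG libraries were below all DMSO libraries for *Ldhb*, while *Ldha* was above them in αKG replicates 1 and 2 and below them in αKG replicate 3. For *Ldhb* the log2 fold change was -0.29 ± 0.09 (limma adjusted p = 0.0931) and -0.40 ± 0.04 without αKG replicate 3 (limma adjusted p = 0.00181). Per kb, *Ldha* made up 35.2%, 36.1% and 35.9% of both subunits in DMSO and 46.3%, 46.5% and 35.6% in αKG. These shares rest on exon lengths of 3310 bases for *Ldha* and 1570 for *Ldhb*. In normalised counts *Ldha* was the higher in every library.

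Lactate and pyruvate cross the membrane through MCT1 (*Slc16a1*) and MCT4 (*Slc16a3*), the exporter of highly glycolytic cells. *Slc16a3* (ENSMUSG00000025161, chr11:120948480-120960868) had 18, 20 and 25 normalised counts in DMSO against 233, 285 and 23 with αKG. It was thus far above the DMSO libraries in αKG replicates 1 and 2 and within their range in αKG replicate 3. The log2 fold change was 2.42 ± 0.76 with all libraries (limma adjusted p = 0.0891) and 3.57 ± 0.18 without αKG replicate 3 (limma adjusted p = 0.000259). *Slc16a1* had 859, 923 and 925 in DMSO against 914, 971 and 1041 with αKG, overlapping groups with a log2 fold change of 0.11 ± 0.07. Per kb, *Slc16a3* made up 1.71% to 2.20% of both transporters in DMSO and 17.5%, 19.6% and 1.81% in αKG, so *Slc16a1* remained the larger in every library.

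**Figure D3:**
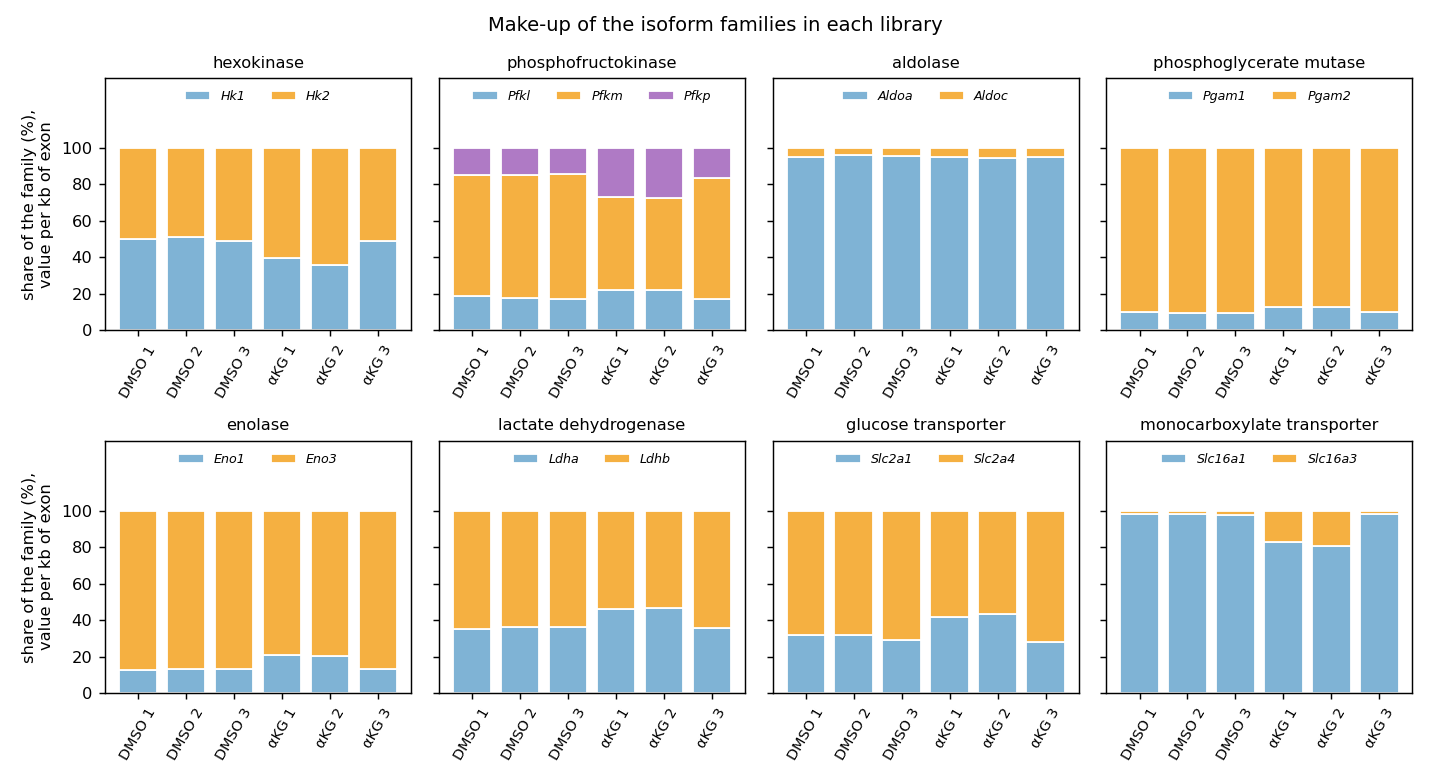
Each bar is 1 library, and its colours give the percent of a family's summed value, per kb of exon, that each isoform held. The shares depend on exon lengths joined over all annotated transcripts of a gene. Between DMSO and αKG replicates 1 and 2 the bars shift in hexokinase, phosphofructokinase, enolase, lactate dehydrogenase and both transporter families, whereas αKG replicate 3 is closer to DMSO.

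The balance of isoforms was also compared within libraries, where the scaling of a library cancels. Of 9 log2 ratios, 2 did not overlap between the groups. *Pfkp*/*Pfkm* was -0.15, -0.14 and -0.25 in DMSO and 1.10, 1.14 and 0.00 in αKG, a difference of 0.93 ± 0.38 (SE, n = 3 each, exact two-sided permutation p = 0.1). *Aldoa*/*Aldoc* was lower in αKG by a log2 difference of -0.22 ± 0.09 (exact two-sided permutation p = 0.1). The other 7 overlapped, with an exact permutation p of 0.2 to 0.4. Adjusted over the 9 ratios the p lay between 0.3 and 0.4, and 0.1 is the smallest p that 3 against 3 libraries can give. Without αKG replicate 3 the differences grew, to 1.30 for *Pfkp*/*Pfkm*, 0.79 for *Eno1*/*Eno3*, 0.64 for *Ldha*/*Ldhb*, 0.72 for *Slc2a1*/*Slc2a4*, -0.71 for *Hk1*/*Hk2* and 3.51 for *Slc16a3*/*Slc16a1*.

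Of the regulators, *Pfkfb3* and *Pfkfb4* make fructose 2,6-bisphosphate, the activator of phosphofructokinase, and *Pdk1* inhibits pyruvate dehydrogenase. *Pfkfb3* had 124, 152 and 161 normalised counts in DMSO against 233, 258 and 124 with αKG (log2 change 0.43 ± 0.24 with all libraries, limma adjusted p = 0.275, and 0.76 ± 0.13 without αKG replicate 3, limma adjusted p = 0.00588). *Pdk1* had 565, 531 and 577 in DMSO against 771, 996 and 554 with αKG. αKG replicate 3 lay within the DMSO range for both, and αKG replicates 1 and 2 lay above it. For *Pdk1* the log2 values differed by 0.43 ± 0.17 (limma adjusted p = 0.141), and by 0.65 ± 0.11 without αKG replicate 3 (limma adjusted p = 0.00567). *Pfkfb4* was low, with 17, 12 and 7 in DMSO against 24, 18 and 20 with αKG (0.80 ± 0.36, limma adjusted p = 0.177).

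The other hypoxia genes have roles outside glycolysis. *Bnip3* (ENSMUSG00000078566, chr7:138890836-138909519) had 177, 161 and 177 normalised counts in DMSO against 276, 349 and 149 with αKG. αKG replicates 1 and 2 were the highest and αKG replicate 3 the lowest of the 6 libraries. The log2 fold change was 0.50 ± 0.25 (limma adjusted p = 0.226), and 0.85 ± 0.11 without αKG replicate 3 (limma adjusted p = 0.00281). *Ndrg1* (ENSMUSG00000005125, chr15:66929318-66969640), a stress-responsive gene linked to differentiation, had 121, 129 and 106 in DMSO against 260, 314 and 133 with αKG. It was the only one of the 8 with all αKG libraries above all DMSO libraries. Its mean was 119 ± 11.7 in DMSO and 236 ± 92.9 in αKG (SD, n = 3 each), so that log2 values differed by 0.90 ± 0.27 (limma adjusted p = 0.0809), and 1.27 ± 0.12 without αKG replicate 3 (limma adjusted p = 0.00114).

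*Car9* (ENSMUSG00000028463, chr4:43506966-43513729), which acidifies the cell surface and is nearly silent in oxygen, had 0, 3 and 0 normalised counts in DMSO against 26, 15 and 1 with αKG. In estimated reads this was 3 in the DMSO libraries together and 38 in the αKG libraries, a ratio of 13.9 with an exact 95% interval of 4.42 to 70.5, which covers counting error only. Of the 38 reads, 37 came from αKG replicates 1 and 2. The limma adjusted p was 0.121 with all libraries and 0.0092 without αKG replicate 3. *Ankrd37* had 8, 3 and 5 in DMSO against 11, 18 and 5 with αKG and passed in neither fit (limma adjusted p = 0.281 and 0.0558).

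*Adm*, the vasodilator peptide adrenomedullin, had 83, 78 and 72 normalised counts in DMSO against 98, 126 and 48 with αKG. αKG replicate 3 was again the lowest of all, and the log2 fold change was 0.12 ± 0.30 with all libraries (limma adjusted p = 0.828) and 0.51 ± 0.14 without it (limma adjusted p = 0.0299). *Mxi1*, a MYC antagonist, was the hypoxia gene that passed as lower without αKG replicate 3, with 378, 403 and 405 in DMSO against 308, 351 and 394 with αKG (log2 change -0.18 ± 0.10 with all libraries, limma adjusted p = 0.277, and -0.26 ± 0.07 without αKG replicate 3, limma adjusted p = 0.0328). *Ddit4*, an inhibitor of mTORC1, and *Higd1a*, a mitochondrial protein, passed in neither fit. *Ddit4* lay between 74 and 105 in DMSO and between 50 and 97 in αKG, and *Higd1a* between 170 and 195 and between 146 and 193.

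**Figure D4:**
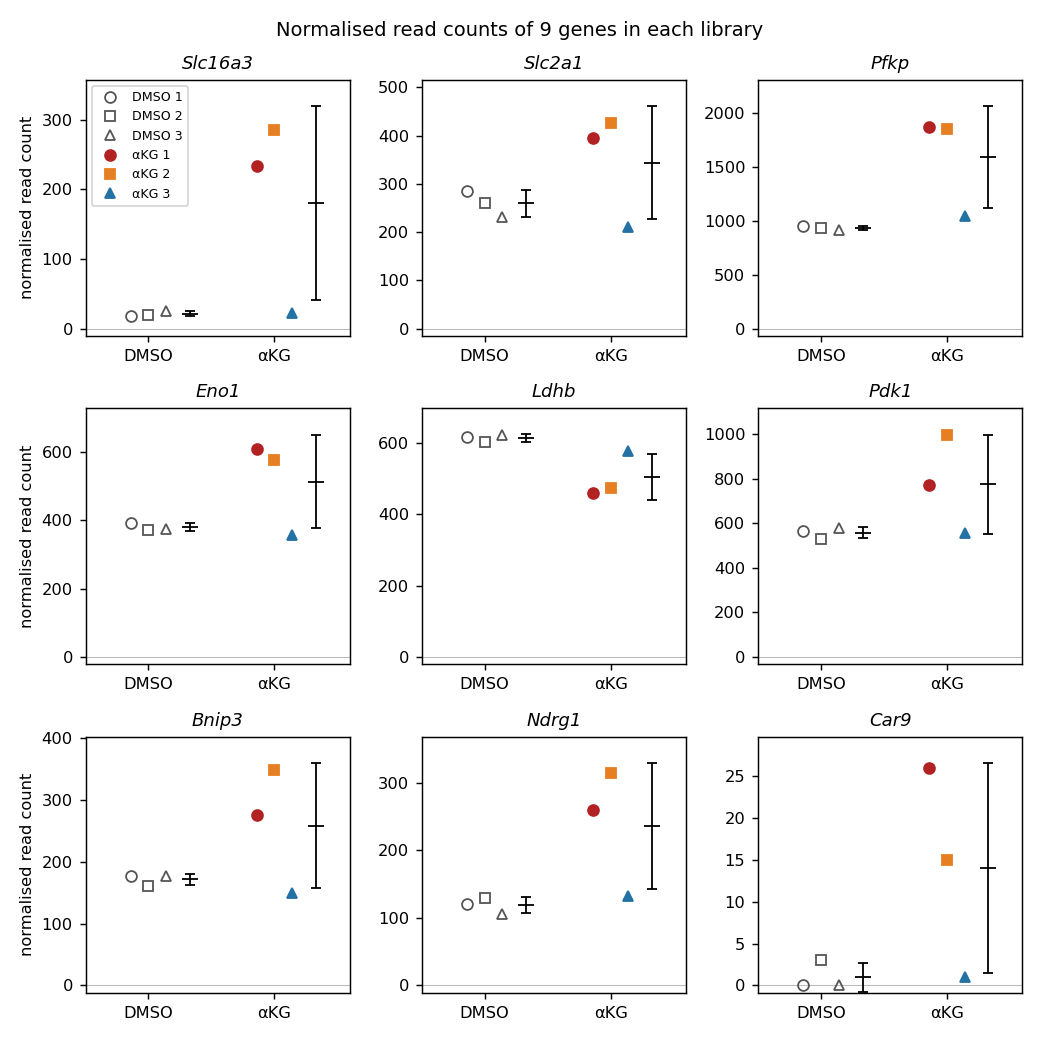
Normalised read counts of 9 members in each library, with the mean and SD of the 3 libraries of each group as a dash and bar. αKG replicates 1 and 2 lie above DMSO in every panel but that of *Ldhb*, where they lie below, and αKG replicate 3 is the αKG library nearest to the DMSO mean.

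Among 29 listed of 30 further HIF targets, 0 passed with all libraries (limma, 12 at an unadjusted p under 0.05, which 28.1% of all genes reached). Without αKG replicate 3, 17 were higher (19.3% of all genes) and 2 lower (17.9% of all genes). The largest of these differences, picked after the values were seen, was that of the prolyl hydroxylase *Egln3*. It had 43, 64 and 48 normalised counts in DMSO against 332, 431 and 73 with αKG (log2 change 2.08 ± 0.54, limma adjusted p = 0.0594). *Vegfa*, the angiogenic growth factor, also picked afterwards, had 840, 863 and 910 in DMSO against 1350, 1396 and 838 with αKG. Both thus followed the division of the members, with αKG replicate 3 above DMSO for *Egln3* and just below it for *Vegfa*.

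Of 12 genes of the HIF pathway, only *Bcl2*, a survival factor, passed with all libraries (3.78% of all genes did). It had 312, 301 and 283 normalised counts in DMSO against 506, 493 and 477 with αKG, so that all 3 αKG libraries were alike (log2 change 0.72 ± 0.08, limma adjusted p = 0.00616). Without αKG replicate 3, 3 genes of the list were higher and 4 lower, against 19.3% and 17.9% of all genes. *Egln1* and *Egln3* were on both this list and that of the further HIF targets, so *Egln3* is counted as higher in both. *Hif1a*, the oxygen-regulated subunit, had 1786, 1753 and 1842 in DMSO against 1664, 1694 and 1697 with αKG (-0.09 ± 0.05, limma adjusted p = 0.282). The subunit HIF-2α, *Epas1*, had 871, 824 and 830 in DMSO against 480, 437 and 733 with αKG (-0.65 ± 0.16, limma adjusted p = 0.0544). These 2 genes were also picked after their values were seen, and RNA levels do not report HIF protein.

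Of 23 listed of 30 other glycolysis genes, 3 passed with all libraries, against 3.78% of all genes. *Pck2*, the mitochondrial PEP carboxykinase, rose from 129, 132 and 106 normalised counts to 369, 337 and 168 (log2 change 1.17 ± 0.26, limma adjusted p = 0.0436). *Eno2*, the neuronal enolase, rose from 6, 4 and 8 to 33, 30 and 13 (1.85 ± 0.43, limma adjusted p = 0.0476). *Gpd1l*, a glycerol 3-phosphate dehydrogenase-like enzyme, fell from 302, 279 and 302 to 207, 206 and 239 (-0.44 ± 0.10, limma adjusted p = 0.0459). The groups did not overlap in any of the 3, and αKG replicate 3 was the nearest to DMSO in each. *Bcl2* lost its call in 6 of 16 alternative fits, *Pck2* in 9, and *Eno2* and *Gpd1l* in 10 each, including those without αKG replicate 1 or 2. Without αKG replicate 3, 8 of the 23 were higher and 5 lower, against 19.3% and 17.9% of all genes.

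Neighbouring routes of pyruvate and glucose were counted in the same way. Of 13 genes of pyruvate entry into mitochondria, 0 passed with all libraries (limma, 4 at an unadjusted p under 0.05), and without αKG replicate 3 2 were higher and 7 lower. Of 15 genes of the pentose phosphate pathway and glycogen, 0 passed (limma, 2 at an unadjusted p under 0.05), and 1 was higher and 4 lower without αKG replicate 3. Over all genes, 28.1% reached an unadjusted p under 0.05 with all libraries. In the fit without αKG replicate 3, 19.3% of all genes were higher and 17.9% lower. For genes with a mean of at least 100 these shares were 18.4% and 34.6%.

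Most fibroblast and epicardial markers showed the same division as the members. Among the 8 fibroblast markers, *Tcf21* (56 to 65 in DMSO, then 58, 62 and 39 in αKG) and *Lum* (133 to 137, then 123, 156 and 149) did not. The summed fibroblast markers (8 of 8 listed) were 2953 to 3094 in DMSO and 6620, 6388 and 2971 in αKG replicates 1 to 3. The epicardial markers (8 of 8) summed to 444 to 482 and 1120, 1097 and 437. In DMSO and in αKG replicate 3, most of the epicardial sum was *Tbx18* (306 to 332, then 408, 405 and 351). All 8 epicardial markers lay above the DMSO range in αKG replicates 1 and 2. In αKG replicate 3, 6 of the 8 lay below that range and 2 above it. The median log2 difference of these 8 markers from the DMSO mean was 2.27, 2.12 and -0.79 in αKG replicates 1 to 3. The endothelial markers (8 of 8) were 1974 to 2080 in DMSO and 1490, 1387 and 1378 in αKG, and 6 of them passed the test as lower, with *Pecam1* at 303 to 339 in DMSO and 129, 134 and 184 in αKG. The other 2, *Tek* (58 to 71 in DMSO and 115, 96 and 54 in αKG) and *Flt1* (485 to 510, then 733, 719 and 411), were higher in αKG replicates 1 and 2. The sum of cardiomyocyte markers (10 of 10) was 80818 to 83356 in DMSO and 114292, 117306 and 85302 in αKG, but most of it was *Ttn* (51569 to 54216, then 80306, 84136 and 55569). The median log2 change of these 10 markers was 0.09, or 0.16 without αKG replicate 3, and 3 were lower, among them *Nkx2-5* (263 to 277, then 166, 173 and 283) and *Pln* (1917 to 2012, then 1668, 1790 and 1904). Mural markers (7 of 7) summed to 3114 to 3223 and 3134 to 3593, and 1 of them passed with all libraries (limma adjusted p = 0.0362). Within that sum, *Abcc9* was lower in αKG replicates 1 and 2 (2020 to 2114 in DMSO, then 1590, 1495 and 2060). *Cspg4* was higher in every αKG library (777 to 846, then 1576, 1282 and 1021). Macrophage markers (4 of 8 listed) summed to at most 41 and erythroid ones (1 of 7) to at most 4 in any library, and *Ptprc*, *Adgre1* and the globins were not listed. Cell cycle genes (30 of 30), given above, were highest in αKG replicate 3. The part of these markers in the results on glycolytic and hypoxia genes was not tested. In bulk RNA, a change in the share of a cell type and a change in its RNA per cell cannot be told apart.

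Some members share sequence with other genes, and the study left out reads that fit several genes or places. Of the 75-base windows of the longest transcript, 67.5% for *Pgk1*, 65.4% for *Eno1*, 46.3% for *Bnip3*, 40.6% for *Pgam1*, 34.3% for *Higd1a* and 22.8% for *Gapdh* also occurred in other annotated genes. For *Pkm* the share was 19.6% and for *Ldhb* 16.7%, and it was smaller in the other members. The levels of members with shared windows, and their shares within a family, are therefore uncertain and may be understated, whereas *Slc16a3*, *Pfkp*, *Pfkl*, *Pfkm*, *Hk2* and *Pdk1* shared no window.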

How the data were processed

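Stranded libraries of total RNA, 3 DMSO and 3 αKG, were sequenced. Per the study's methods and the submitters' processing notes, the authors used Trimmomatic 0.39 for trimming, STAR 2.7.10a for alignment to mm10 (GRCm38.p5), featureCounts 2.0.3 for counting per gene and DESeq2 1.30.1 for normalisation. Whether counting used strand is not given in the sources used here, so overlapping and antisense genes are uncertain. Per the values themselves, what the authors deposited is a score, that is, read counts scaled by a factor per library and rounded to whole numbers. The αKG concentration follows the labels, and the study's methods give another.

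The value of 1 read, estimated from gaps between whole numbers, was 0.926 to 0.965 in the DMSO libraries and 0.94 to 1.12 with αKG, and gave the estimated reads. Intervals and sampling noise cover counting error only. limma 3.58.1 (R 4.3.3) was fitted to log2(value + 1) of all 20066 genes with a variance trend and treatment as its only term, which understates changes of low genes. The planned count test was not used, since the values are not counts. Calls are Benjamini-Hochberg adjusted p under 0.05, over all genes. Alternatives were the pseudocount, a filter, scaling, the variance model, limma-voom, each library left out, averaged DMSO replicates 2 and 3, a replicate block, and a GC and length correction. DMSO replicates 2 and 3 were kept separate: over all genes they differed by no more than counting noise (chi-square 1.02 per gene, p = 0.104), but by 9.89 per gene in 30 cell cycle genes.

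Members and gene lists were chosen with earlier results of these data known. Named with full values are members past the threshold in any fit that leaves out 1 library, the isoform pairs, and list genes past the threshold in the fit to all libraries. *Egln3*, *Vegfa*, *Hif1a* and *Epas1* were added outside this rule, after their values were seen. *Pfkfb4*, *Ankrd37* and some cell type markers are also given with values outside it. The remaining members are given by range or fold change. *Aldoa* had 2 rows, and the one with the higher mean was used, the other holding at most 4 per library. Levels per kb used exon lengths of GENCODE M21 (GRCm38), joined over all annotated transcripts of a gene. A single transcript can be much shorter. The levels per kb, the shares within a family and which isoform is larger can therefore depend on this choice. Fold changes of a single gene do not. Promoters are from RefSeq (GRCm38.p6). Python 3.11.15 was used for reading and plots.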

Additional observations from a re-analysis of the deposited data

How the results depend on the processing

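The number of called genes was 759 with all libraries and treatment alone. It was 27 without a variance trend, 338 with limma-voom, 19 with DMSO replicates 2 and 3 averaged, 46 with the replicate block, 2084 with the GC and length correction and the block together, 5648 at an unadjusted p under 0.05, and 0 to 7466 when 1 library was left out. Glycolytic members called went from 0 to 3 with the GC and length correction and the block, 8 at an unadjusted p, and 0 to 16 with 1 library left out. For the other hypoxia members the counts were 2, 2 and 0 to 5. No member was called in the other fits. The same-numbered libraries deviated from their group means with correlations of -0.07, 0.14 and 0.0019 over 13409 genes, and differently numbered ones with -0.17 to 0.14. These values cannot settle whether the replicate numbers pair the samples, since αKG replicate 3 stood far from the other αKG libraries. The block without the GC and length correction called 0 members.

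Of 526 member values in 16 alternative fits, 487 kept their direction and their side of the threshold, 26 passed it (21 without αKG replicate 3 and 5 with the GC and length correction and block) and 13 changed sign. The fits without a variance trend and with the replicate block keep the fold changes of the main fit, so no sign could change there. The block likewise left the GC-corrected fold changes as they were. No member passed in the main fit, so keeping its side meant staying uncalled. Corrected for GC content and length, both without and with the block, *Tpi1* was -0.039, *Pgk1* -0.071, *Slc16a1* -0.13 and *Adm* -0.016 on the log2 scale, beside a median of -0.11 over all genes. With 1 library left out, *Tpi1* ranged from -0.0031 to 0.10, *Pgk1* from -0.069 to 0.18, *Adm* from -0.17 to 0.51 and *Higd1a* from -0.11 to 0.085. The isoform ratios kept their sign in every alternative run, though the replicate block could not have changed it. *Car9* and *Ankrd37* had no value under the mean filter of 10. The cause of these changes was not tested. *Car9*, *Ankrd37*, *Pfkfb4* and, in DMSO, *Slc16a3* rest on at most 26 normalised counts a library, so their fold changes depend most on counting error and on the pseudocount.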
